A study of Mus musculus with 6 samples.

Results

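The genes described here encode the mouse machinery for presenting peptides on MHC class II molecules. They were taken by symbol from the table of gene counts, and all 10 were found among its 54232 genes: the chains H2-Aa, H2-Ab1, H2-Eb1 and H2-Eb2, the subunits H2-DMa, H2-DMb1, H2-DMb2 and H2-Oa, the invariant chain Cd74 and the transactivator Ciita. Their transcripts were measured by RNA-Seq in cultures labelled primary uterine stromal cell, with 3 libraries from WT mice and 3 from Pbrm1 cKO mice. PBRM1 is a subunit of a SWI/SNF chromatin remodeling complex, and the comparison asks which transcripts differ in these cells when it is lost.

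The Pbrm1 cKO mice carried floxed Pbrm1 alleles (Pbrm1 fl/fl) and Cre expressed from the progesterone receptor locus (PR-IRES-cre), so that deletion depends on that receptor having been expressed. Controls are labelled WT, while the methods of the study describe Pbrm1 fl/fl animals. All animals were 8 to 12 weeks old and on D4 of pseudopregnancy, and the labels name no strain. Each preparation pooled 5 to 10 uterine horns, which were digested with enzymes, filtered and plated. The medium was changed after 4 hours and the cells were collected 2 hours later. The study calls replicates of these cells biological without saying how the pools were divided among them, and p-values measure the spread between these libraries.

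Class II molecules are dimers of an α and a β chain that display peptides from endocytosed proteins to CD4+ T cells. The invariant chain occupies the groove of a newly made dimer, proteases such as cathepsin S degrade it, the DM dimer exchanges its last fragment for other peptides, and the DO dimer modulates DM. Dendritic cells, macrophages and B cells are the usual sources of these proteins, and interferon-γ can induce them in other cells, including fibroblasts. Transcription of the set depends on Ciita, which is recruited by factors bound to conserved promoter boxes.

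Library totals ranged from 13253575 to 18338667 counts, and the level at which 3 counts are found was 0.164 to 0.226 CPM (counts scaled to library size). Pbrm1 (ENSMUSG00000042323.17, chr14:31019138-31121592) had 1354, 1385 and 1677 normalized counts in WT replicates 1 to 3 and 397, 459 and 451 in the Pbrm1 cKO replicates. The cKO mean was 29.6% of the WT mean (log2 fold change -1.76, SE 0.13, DESeq2 adjusted p = 5.19e-40). Transcripts of uterine stroma were abundant in every library, with a summed level of 11 markers (among them Vim, Pdgfra and Col1a1) of 96365 to 116330 in WT and 83807 to 90212 in cKO. Of these markers 1 was called higher and 5 lower in cKO.

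Enough counts to be tested were found for 7 of the 10 members, and all 7 were higher in Pbrm1 cKO. Among all genes 15.9% of the 17474 genes tested were called higher (DESeq2, adjusted p under 0.05) and 15.2% lower. The median log2 fold change of the 7 members was 2.90, against a median of -0.001 over all genes tested. In each of the 7 every cKO library lay above every WT library, which was so for 24.0% of all genes tested. Of the 7, H2-Aa, H2-Ab1, H2-Eb1, Cd74 and Ciita were called higher with a log2 fold change of at least 2, which applied to 2.37% of genes tested. The remaining 3, H2-Eb2, H2-DMb2 and H2-Oa, had at most 3 counts in every library, here called the floor, and are given no fold change. The libraries are bulk preparations, so that more cells carrying a transcript and more transcript per cell cannot be told apart.

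**Figure D1:**
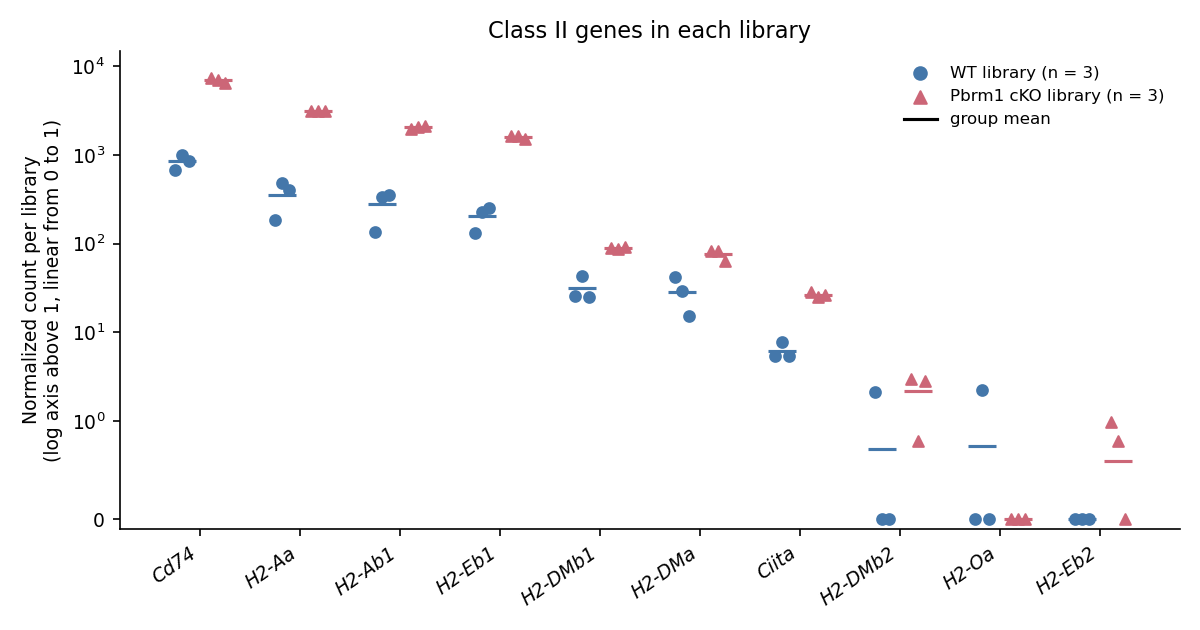
Normalized count of each of the 10 class II genes (vertical axis, logarithmic above 1 and linear from 0 to 1) in the 3 WT (circles) and 3 Pbrm1 cKO libraries (triangles), with a short line at each group mean. From Cd74 to Ciita the triangles lie above the circles, whereas H2-DMb2, H2-Oa and H2-Eb2 stay at no more than 3 counts in every library.

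The 3 expressed chains of the classical dimers rose together. H2-Aa, the α chain of the I-A molecule (ENSMUSG00000036594.14, chr17:34282744-34287827, minus strand), had 185, 478 and 404 normalized counts in WT replicates 1 to 3 and 3104, 3133 and 3123 in the cKO replicates. The WT values spread widely, with replicate 1 lowest, while the cKO values were almost equal, and the lowest cKO library exceeded the highest WT library. Means were 356 ± 153 and 3120 ± 14.8 (SD, n = 3 each), an 8.77-fold difference (log2 3.13, SE 0.39, DESeq2 adjusted p = 3.11e-14).

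H2-Ab1, the β chain that pairs with it (ENSMUSG00000073421.5, chr17:34263209-34269418, plus strand), had 135, 340 and 357 normalized counts in WT and 1985, 2077 and 2151 in cKO. WT replicate 1 was again the lowest, and the groups were separate. The difference was 7.48-fold (277 ± 124 against 2071 ± 82.9, SD, n = 3, log2 2.90, SE 0.42, DESeq2 adjusted p = 7.04e-11).

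H2-Eb1, the β chain of the I-E molecule (ENSMUSG00000060586.10, chr17:34305877-34316199, plus strand), had 131, 226 and 253 normalized counts in WT and 1621, 1635 and 1504 in cKO. The groups did not overlap and differed 7.79-fold (204 ± 63.9 against 1587 ± 71.8, SD, n = 3, log2 2.96, SE 0.19, DESeq2 adjusted p = 2.76e-51). Its neighbour H2-Eb2, a second E β chain gene, had no count in WT and 1, 1 and 0 counts in cKO replicates 1 to 3. H2-Ea-ps, the I-E α chain locus annotated as a polymorphic pseudogene, had 22 counts in WT replicate 1 and 0 in all other libraries (DESeq2 adjusted p = 0.309). Class II chains are polymorphic between mouse MHC haplotypes, and whether WT replicate 1 differed from the other libraries in haplotype was not tested. Without WT replicate 1 the log2 fold changes were 2.82 for H2-Aa, 2.57 for H2-Ab1 and 2.73 for H2-Eb1, with adjusted p (DESeq2) of 3.22e-110 or less.

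Promoter sequences of RefSeq (GRCm38.p6) were available for 7 of the 10 members, and H2-Ab1, Cd74 and Ciita had no entry. The stretches below are shown because the boxes that gather the Ciita platform lie just before the start of class II genes. Each runs 5′ to 3′ on the strand of the gene, from 42 bases before to 12 bases after GATTGG, the letters of an inverted CCAAT or Y box. Capitals mark GATTGG, AACNGATG (letters found in X boxes, which RFX binds) and TGACGTCA (the binding letters of CREB), and no marked stretch overlaps another. These letters were chosen after the sequences had been read.
H2-Aa: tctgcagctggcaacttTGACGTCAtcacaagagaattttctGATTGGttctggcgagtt
H2-Eb1: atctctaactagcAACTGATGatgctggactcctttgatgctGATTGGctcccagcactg
H2-Eb2: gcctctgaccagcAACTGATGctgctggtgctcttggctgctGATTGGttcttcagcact
H2-DMb2: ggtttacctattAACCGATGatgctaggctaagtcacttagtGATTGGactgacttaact
H2-Oa: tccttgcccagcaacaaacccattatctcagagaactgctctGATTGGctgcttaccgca

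The stretches lie at chr17:34287855-34287914 (H2-Aa, minus strand), chr17:34305765-34305824 (H2-Eb1), chr17:34325532-34325591 (H2-Eb2), chr17:34145116-34145175 (H2-DMb2) and chr17:34092293-34092352 (H2-Oa), the last 4 on the plus strand. GATTGG began 49 bases before the RefSeq start in H2-Aa, 60 in H2-Eb1, 101 in H2-Eb2, 91 in H2-DMb2 and 44 in H2-Oa. H2-DMb1 also had both letter strings, with GATTGG 62 bases before its RefSeq start, but its stretch is not printed because it lies wholly in the first exon of a GENCODE transcript. Of the H2-Oa stretch, the last 13 bases lie in such an exon. The RefSeq start of H2-DMb2 lies 1942 bases from the start in the count table, so that its stretch is inside the gene span of that table, and those of H2-DMa lie still farther away, so that its stretch is not shown.

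The distance from AACNGATG to GATTGG, start to start, was 29 bases in H2-Eb1 and H2-Eb2 and 30 bases in H2-DMb1 and H2-DMb2. In H2-Aa, TGACGTCA preceded GATTGG by 25 bases. Searched on both strands of 32851 RefSeq promoters of 300 bases, GATTGG occurred in 16.1%, AACNGATG in 2.32% and TGACGTCA in 1.79%. AACNGATG lay 10 to 40 bases before GATTGG on the same strand in 10 promoters (0.0304%). They were those of H2-Eb1, H2-Eb2, H2-DMb1, H2-DMb2, BC051142, H2-M10.4, G3bp2, Scgb2b20, Fgd4 and Sf1. Of the 4 members with this pair of letter strings, H2-Eb1 and H2-DMb1 were called higher in cKO and H2-Eb2 and H2-DMb2 were at no more than 3 counts.

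Cd74, the invariant chain (ENSMUSG00000024610.14, chr18:60803848-60812646, plus strand), was the most abundant member. It had 681, 1007 and 851 normalized counts in WT and 7426, 7067 and 6537 in cKO. Both groups were narrow next to the gap between them, which was 8.29-fold (846 ± 163 against 7010 ± 447, SD, n = 3, log2 3.05, SE 0.14, DESeq2 adjusted p = 2.3e-103).

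The subunits of the DM peptide exchanger rose by smaller fitted fold changes than the chains. H2-DMa (ENSMUSG00000037649.9, chr17:34135182-34139101) had 41.7, 28.9 and 15.1 normalized counts in WT and 82.9, 83.1 and 63.8 in cKO. WT replicate 1, lowest for H2-Aa, H2-Ab1, H2-Eb1 and Cd74, was the highest WT library here. The difference was 2.68-fold (28.6 ± 13.3 against 76.6 ± 11.1, SD, n = 3, log2 1.42, SE 0.36, DESeq2 adjusted p = 5.95e-04) and was not called when the null was a log2 change within 0.58 of 0 (DESeq2 adjusted p = 0.259).

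H2-DMb1 (ENSMUSG00000079547.3, chr17:34153072-34160230) had 25.7, 43.3 and 24.9 normalized counts in WT and 89.8, 86.3 and 92.0 in cKO. The cKO libraries were nearly alike and all lay above WT, with a 2.86-fold difference (31.3 ± 10.4 against 89.3 ± 2.85, SD, n = 3, log2 1.52, SE 0.30, DESeq2 adjusted p = 6.16e-06). Its near copy H2-DMb2 was at 2, 0 and 0 counts (WT) and 3, 1 and 3 (cKO). Reads of 50 bases cannot be assigned where the copies are identical: 27.2% of the 50-base windows of the H2-DMb1 transcript also occur in H2-DMb2, and the counting leaves such reads out, so the counts of both can be incomplete. Relative to H2-Aa in the same library, H2-DMa ranged from 0.0374 to 0.225 in WT and from 0.0204 to 0.0267 in cKO, and H2-DMb1 from 0.0615 to 0.139 and from 0.0275 to 0.0295. The ranges did not overlap, and these 2 ratios were not tested.

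The α chain of the DO dimer, H2-Oa, was at 0, 2 and 0 counts in WT and at 0 in each cKO library. Its partner H2-Ob was at 0, 1 and 0 (WT) and 3, 2 and 3 (cKO). Neither chain exceeded 3 counts in any library, so a difference in DO transcripts was not detectable at this depth. Of the 50-base windows of H2-Oa, 17.2% are shared with the antisense transcript BC051537.

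Ciita, the transactivator on which the other members depend (ENSMUSG00000022504.10, chr16:10480059-10528418, plus strand), was present at few counts. The raw counts were 5, 7 and 5 in WT and 29, 31 and 28 in cKO. Normalized, they averaged 6.17 ± 1.38 and 26.6 ± 1.94 (SD, n = 3), a 4.30-fold difference with no overlap (log2 2.11, SE 0.55, DESeq2 adjusted p = 8.59e-04).

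Levels of different genes were compared as counts per kilobase of gene model, scaled to the same total (1000000) in each library. In WT, Cd74 had 113 ± 18.8, H2-Aa 35.5 ± 14.6, H2-Eb1 32.3 ± 9.72 and H2-Ab1 31.7 ± 13.8 (SD, n = 3). The 3 chains overlapped one another in WT and lay below Cd74 in every library. H2-DMb1 at 3.95 ± 1.21 and H2-DMa at 3.29 ± 1.59 overlapped as well, and Ciita was lowest of the 7 at 0.122 ± 0.024.

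In cKO the levels per length were 1078 ± 100 for Cd74, 361 ± 10.0 for H2-Aa, 290 ± 21.0 for H2-Eb1 and 274 ± 3.53 for H2-Ab1 (SD, n = 3). H2-Aa lay above the β chains in every cKO library, whereas H2-Eb1 and H2-Ab1 overlapped. H2-DMb1 had 13.0 ± 0.40, H2-DMa 10.1 ± 1.72 and Ciita 0.604 ± 0.056. The order of the 3 chains depends on the length used: with the longest GENCODE transcript, H2-Ab1 at 301 came second to Cd74 and H2-Aa had 171.

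Ratios between genes of the same library were tested for 6 pairs, as log2 ratios with 0.5 added to each normalized count, with a two-sided exact permutation test, for which 0.1 is the smallest possible p with 3 libraries a group, so that no pair could pass 0.05. The counts of H2-Ab1 relative to H2-Aa were 0.728, 0.710 and 0.882 in WT and 0.640, 0.663 and 0.689 in cKO. The ranges were separate but close, with a mean log2 difference of -0.22 (exact permutation p = 0.1, adjusted 0.15) that was -0.12 without WT replicate 3. Cd74 relative to H2-Aa was 3.68, 2.10 and 2.10 in WT and 2.39, 2.26 and 2.09 in cKO, which overlapped (exact permutation p = 0.8, adjusted 0.96). The log2 difference of that ratio was -0.18 over all libraries and 0.09 without WT replicate 1.

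The ratio of Ciita to H2-Aa was lower in cKO. Its counts relative to H2-Aa were 0.0289, 0.0162 and 0.0134 in WT and 0.00922, 0.00791 and 0.00841 in cKO. Each cKO ratio lay below each WT ratio, by a mean log2 difference of -1.20 (exact permutation p = 0.1, adjusted 0.15). For H2-DMb2 relative to H2-DMb1 the log2 difference was -0.05 (exact permutation p = 1.0, adjusted 1.0), a value that rests on at most 3 counts of H2-DMb2, was -0.83 with 2 counts added and changed sign without WT replicate 1 (0.87) and without cKO replicate 2 (0.39).

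Of the 15 other genes of class II processing and presentation that were listed, 14 were tested, of which 8 were called higher in cKO, 0 lower and 6 were not called. Their median log2 fold change was 1.01, and 15.9% of all genes tested were called higher. Ctss, the cathepsin that trims the invariant chain, had 492, 1133 and 967 normalized counts in WT and 7055, 7222 and 7244 in cKO. It showed the pattern of the chains, with WT replicate 1 lowest and no overlap (log2 3.05, SE 0.35, DESeq2 adjusted p = 7.05e-17).

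The ubiquitin ligase March1, which removes class II molecules from the surface, rose by a log2 fold change of 2.38 (29.1 to 151 mean normalized counts, DESeq2 adjusted p = 2.46e-16). Cd83, which opposes it, rose by 1.38 (adjusted p = 2.53e-04). The endosomal proteases Lgmn and Ctsd rose by log2 1.42 and 1.33, and the costimulatory ligand Cd86 by log2 1.28 (DESeq2 adjusted p = 2.36e-06). Ifi30, the lysosomal thiol reductase, was at 715 and 726 mean normalized counts in WT and cKO (log2 0.02, DESeq2 adjusted p = 0.934).

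Among 18 genes that act upstream of class II transcription, 17 were tested, of which 4 were called higher, 0 lower and 13 were not called. Their median log2 fold change was 0.18, and 15.9% of all genes tested were called higher. Among those called were Spi1 and Irf8, transcription factors of myeloid and other blood cells (log2 2.20 and 1.29, DESeq2 adjusted p = 1.81e-16 and 8.04e-07) and the interferon-γ receptor chain Ifngr2 (log2 0.51, adjusted p = 5.51e-05). Spi1 had 38.5, 93.2 and 82.2 normalized counts in WT and 326, 329 and 328 in cKO, and thus also had its lowest value in WT replicate 1.

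The factors that bind the promoter boxes were not called. Rfx5, a subunit of the X box factor, had 62.0, 47.7 and 54.0 normalized counts in WT and 58.2, 67.1 and 46.0 in cKO (log2 0.07, SE 0.29, DESeq2 adjusted p = 0.902). The groups overlapped. Irf1, which carries the interferon-γ signal to Ciita, had a log2 fold change of 0.21 (SE 0.18, adjusted p = 0.399). Ifng itself had 0 counts in 5 libraries and 2 in cKO replicate 2, at which depth a difference was not detectable.

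**Figure D2:**
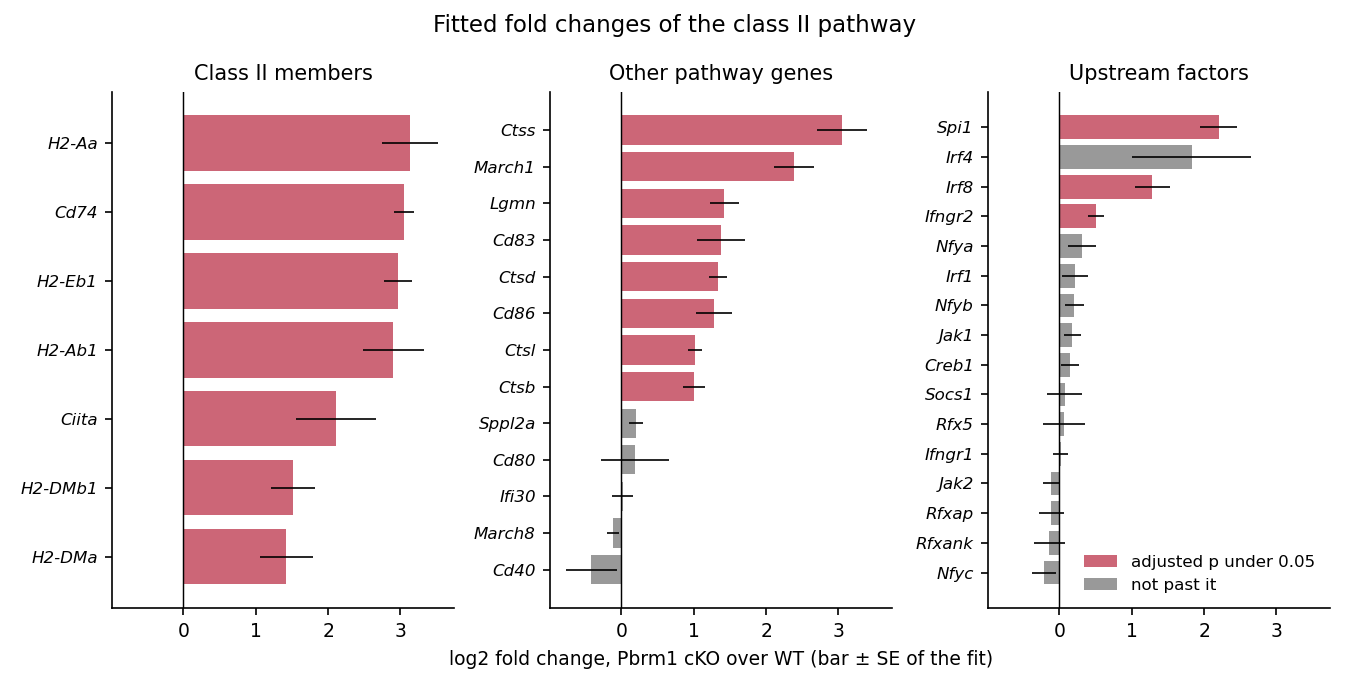
Log2 fold change of Pbrm1 cKO over WT (bars, with the SE of the DESeq2 fit as lines) for the class II members, other genes of the pathway and upstream factors that were tested and not at the floor, with H2-Ea-ps and 1 upstream factor left out. Red bars have an adjusted p under 0.05: all 7 members, 8 of the other pathway genes and, among the upstream factors shown, Spi1, Irf8 and Ifngr2.

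Of the members, 8 lie in the class II region of chromosome 17, between chr17:34092340 and chr17:34340229, a stretch of 247.9 kb. The annotation of the counts places 11 other genes there. Of these 5 were tested and 4 were called higher in cKO, against 15.9% called higher among all genes tested. Those 4 serve class I presentation: the immunoproteasome subunits Psmb9 (log2 1.58, DESeq2 adjusted p = 1.4e-05) and Psmb8 (log2 0.60, adjusted p = 2.52e-04) and the peptide transporter chains Tap2 (log2 1.12, adjusted p = 1.74e-15) and Tap1 (log2 0.80, adjusted p = 2.39e-08). The chromatin reader Brd2, in the same stretch, had a log2 fold change of 0.04 (SE 0.15, adjusted p = 0.882). It was the only gene tested there that was not called. Members at the floor lay at both ends of the stretch and between H2-DMa and H2-DMb1.

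**Figure D3:**
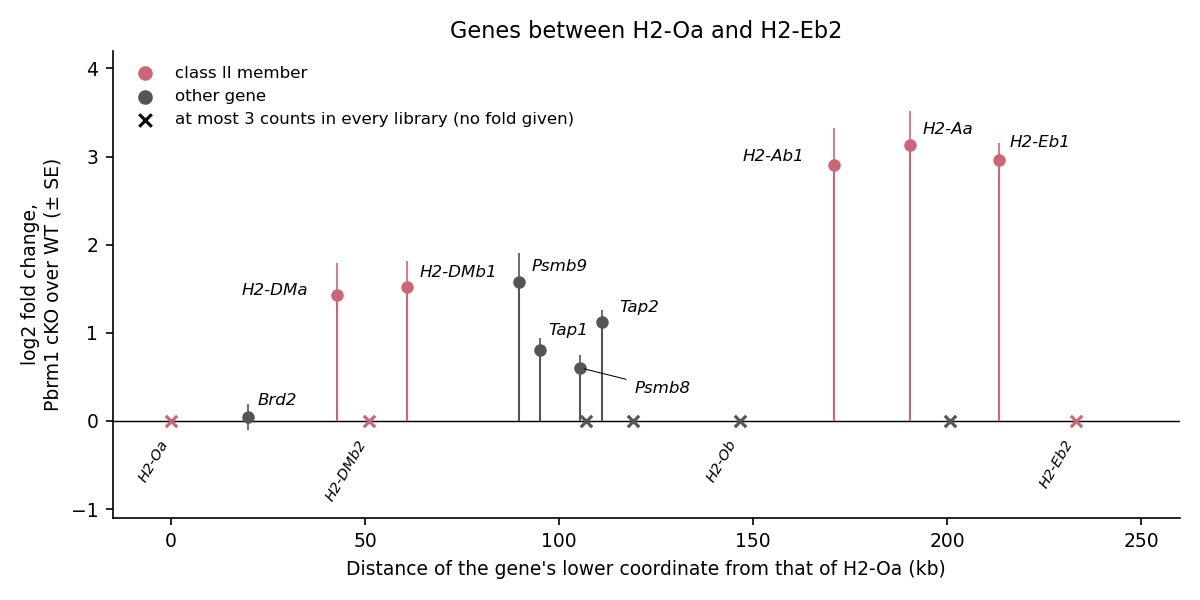
Log2 fold change (points, with the SE of the fit) of genes between H2-Oa and H2-Eb2 against distance in kb from H2-Oa, for class II members (red) and other genes (grey), with crosses for genes of at most 3 counts in every library. H2-Ab1, H2-Aa and H2-Eb1 stand near 3, the DM genes near 1.5, and Brd2 at 0.04.

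Markers of white blood cells moved in the same direction as the members. Over all genes tested, 15.9% were called higher. All 6 pan-leukocyte markers were called higher in cKO (median log2 2.05), with a summed level of 708 to 1578 normalized counts in WT and 5164 to 5432 in cKO. Ptprc, which encodes CD45, had 172, 370 and 325 normalized counts in WT and 1138, 1070 and 1105 in cKO (log2 1.93, SE 0.22, DESeq2 adjusted p = 4.34e-17). Of 12 macrophage and monocyte markers, among them Adgre1, Csf1r, C1qa and Mrc1, 11 were called higher and 1 was not (median log2 2.13), and their summed level was 4077 to 9333 in WT and 31677 to 33462 in cKO. The largest part of that sum was Lyz2, with means of 3948 in WT and 18750 in cKO. WT replicate 1, lowest for H2-Aa, H2-Ab1, H2-Eb1 and Cd74, had the lowest sum of both lists. Their part in the class II difference was not tested.

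The dendritic cell list was mixed. Of its 9 genes, 4 were tested and 2 called higher: Itgax, an integrin of dendritic cells and some macrophages, with 6.41, 9.99 and 14.1 normalized counts in WT and 152, 151 and 145 in cKO (log2 3.88, SE 0.35, DESeq2 adjusted p = 1.53e-26), and Ccr7 (log2 1.64, adjusted p = 9.84e-03). Zbtb46, a transcription factor of classical dendritic cells, had 172, 168 and 210 normalized counts in WT and 226, 201 and 200 in cKO (log2 0.19, DESeq2 adjusted p = 0.46), and Batf3 was not called either (log2 -0.62, adjusted p = 0.81). Xcr1 had 0 counts in every library, and Flt3, Clec9a, Cd209a and Siglech had at most 3. The summed level was 190 to 243 in WT, most of it Zbtb46, and 364 to 421 in cKO. Among 7 B cell markers, Ms4a1 and Cr2 had 0 counts throughout, 0 of the 2 tested were called, and the sum was 10.7 to 19.98 in WT and 12.8 to 23.5 in cKO.

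Of 8 T and NK cell markers, 4 were tested and 1, Cd3g, was called higher, with sums of 8.55 to 16.6 in WT and 44.1 to 51.9 in cKO. The endothelial list had 1 of 6 higher and 2 lower, with sums of 1450 to 3965 in WT and 1311 to 1457 in cKO. The epithelial list had 3 of 6 higher and 0 lower, with sums of 1624 to 2613 in WT and 2733 to 2912 in cKO. For comparison, 15.9% of all genes tested were called higher and 15.2% lower. In WT replicate 1 the endothelial sum was 1450, against 3965 and 3462 in the other WT libraries. Among its markers Cdh5 went the other way, at 774, 713 and 677 normalized counts in WT replicates 1 to 3. WT replicate 1 had the lowest WT sum in each of the 7 lists of leukocyte, endothelial and epithelial markers and the highest stromal sum (116330). Without WT replicate 1 the counts of genes called higher stayed at 8 for the other pathway genes, 4 for upstream factors, 11 for macrophage and 6 for pan-leukocyte markers, an analysis added after the data had been seen.

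Relative to Ptprc, the only pan-leukocyte marker used as a denominator, the chains and Cd74 were higher in cKO. The size of such a difference depends on the marker chosen. Fitted fold changes of the pan-leukocyte markers ranged from 3.22 (Coro1a) to 6.49 (Laptm5), against 3.82 for Ptprc. Ratios of the members to the other pan-leukocyte markers were not tested, nor was a rise beyond leukocyte content. H2-Aa relative to Ptprc was 1.08, 1.29 and 1.24 in WT and 2.73, 2.93 and 2.83 in cKO, with no overlap. The mean log2 difference was 1.24 (exact permutation p = 0.1, the smallest possible, adjusted 0.15), and it was 1.16 to 1.29 with any 1 library left out. H2-Ab1 relative to Ptprc ranged from 0.783 to 1.10 in WT and from 1.75 to 1.95 in cKO, H2-Eb1 from 0.613 to 0.777 and from 1.36 to 1.53, and Cd74 from 2.62 to 3.96 and from 5.91 to 6.61.

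For H2-DMa, H2-DMb1 and Ciita the ratios to Ptprc overlapped between WT and cKO. For Ciita the range was 0.0166 to 0.0311 in WT and 0.0232 to 0.0252 in cKO. Among genes outside the members, Ctss relative to Ptprc was 2.86 to 3.07 in WT and 6.20 to 6.75 in cKO, Csf1r 1.28 to 1.93 and 2.16 to 2.38, and C1qa 1.03 to 1.26 and 1.41 to 1.47, each without overlap. The ratios of Lyz2 and Tyrobp to Ptprc overlapped. Relative to Itgax the direction was the other way, with H2-Aa at 28.8, 47.9 and 28.8 in WT and 20.4, 20.8 and 21.6 in cKO (mean log2 difference -0.64, exact permutation p = 0.1, adjusted 0.15, and -0.39 without WT replicate 2).

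**Figure D4:**
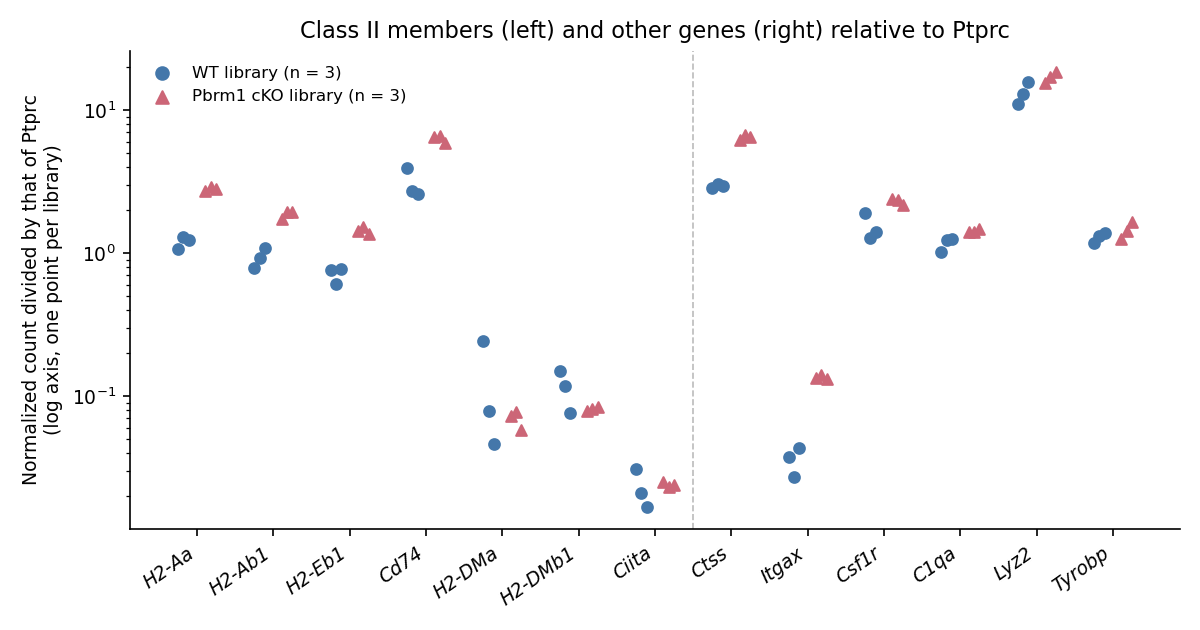
Normalized count of each gene divided by that of Ptprc in the same library (logarithmic axis) for 3 WT (circles) and 3 Pbrm1 cKO libraries (triangles), class II members to the left of the dashed line. Triangles lie above circles for H2-Aa, H2-Ab1, H2-Eb1 and Cd74 and, on the right, for Ctss, Itgax, Csf1r and C1qa, and overlap them for H2-DMa, H2-DMb1, Ciita, Lyz2 and Tyrobp.

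The mean profile of H2-Aa, H2-Ab1, H2-Eb1 and Cd74 over the 6 libraries was compared with those of 10980 other genes, by the root mean square difference of centred log2 values, as a description without a test. The nearest was Cilp, which encodes a protein of cartilage matrix, at 0.0486, with 292, 647 and 568 normalized counts in WT and 4160, 4079 and 3842 in cKO. Ctss followed at 0.07, then Cd180, a cell surface receptor, at 0.0946 and the semaphorin Sema4d at 0.133. The next were the myosin Myo1f (0.150), the exchange factor Dock8 (0.155), the kinase subunit Pik3r5 (0.161) and the potassium channel Kcnn4 (0.165). Like H2-Aa, Cilp and Ctss had their lowest value in WT replicate 1 and a range in cKO that was narrow next to the difference between the groups.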

How the data were processed

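RNA-Seq counts of 3 WT and 3 Pbrm1 cKO libraries were used. Per the labels and methods, the authors used cutadapt to trim 50-base single-end reads and HISAT2 to align them with GRCm38, and counted them on GENCODE mouse release 18 genes with featureCounts 1.6.4, reverse stranded (-s 2). The labels describe a random and poly(T) primed kit with depletion, the methods poly(A) selection. The deposited table holds raw counts per gene and library, unnormalized and not pooled.

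Genes were named with gene annotation tables for 54079 of 54232 identifiers, and 28552 had a count. The Wald test of DESeq2 1.42.0 (R 4.3.3), with its default size factors and independent filtering, was fitted to all genes, with Benjamini-Hochberg adjustment and a threshold of 0.05. Fold changes are cKO over WT. Groups with at most 3 counts in every library were treated as at the floor. Such limits cover counting error only. Ratios are printed from normalized counts as they are, and their log2 differences and tests had 0.5 added to each count. Profiles used log2 values with 1 added and means of at least 50. edgeR 4.0.16 and limma 3.58.1 served as alternatives, with others of scaling, filter, threshold, replicate block and libraries. The fit was tested on simulated data. No 2 libraries were alike within sampling noise.

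A gene that the naming rule would allow is not reported here, though the counts of its list include it. The members and lists were chosen with earlier results of these data known. Genes were named by a rule: the members, Pbrm1, up to 6 called genes of each pathway list with H2-Ob, Ctss, Rfx5, Ifng and Irf1, up to 6 genes of the region, the 8 nearest profiles and up to 4 genes of each marker list. H2-Ea-ps, Ifi30, Ccr7, Batf3, Cd3g, Lyz2, further undetected markers and the genes listed by promoter letters were named after their values were seen.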

Additional observations from a re-analysis of the deposited data

How the results depend on the processing

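Under 15 alternatives each of the 7 tested members stayed higher and, except H2-DMa against a null of 0.58, past the threshold. With any 1 library left out, log2 fold changes were 2.82 to 3.40 for H2-Aa, 2.57 to 3.12 for H2-Ab1, 2.73 to 3.15 for H2-Eb1, 2.92 to 3.19 for Cd74, 1.11 to 1.80 for H2-DMa, 1.37 to 1.82 for H2-DMb1 and 2.01 to 2.30 for Ciita. With the null widened to a log2 change within 0.58 of 0, and 0.1 as the threshold, DESeq2 called 699 genes higher, 563 lower and 6 members, with H2-DMa (log2 1.42) at adjusted p = 0.259, since it asks for a minimum size. Adjusted p ranged from 1.17e-05 to 0.259 for H2-DMa and from 1.93e-05 to 0.0886 for Ciita. Leaving out 1 library gave 1928 to 2915 genes higher and 1806 to 2648 lower. edgeR called 20.8% and limma voom 21.8% of 14162 genes higher.

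The log2 ratio of Cd74 to H2-Aa ranged from -0.309 to 0.093 (the latter without WT replicate 1) with 1 library left out, and that of H2-DMb2 to H2-DMb1 from -0.703 to 0.869 (without WT replicate 1, and 0.388 without cKO replicate 2). With 2 counts added in place of 0.5, the latter was -0.829, Ciita to H2-Aa -1.419 (from -1.205) and H2-Aa to Itgax -0.451 (from -0.636, and -0.389 without WT replicate 2). An added count weighs more on low counts, and WT had 6.41 to 14.1 normalized counts of Itgax and 5.34 to 7.77 of Ciita. Why ratios moved when a library was left out was not tested. With lengths of the longest GENCODE transcript, levels per length in WT and cKO were 17.1 and 171 for H2-Aa, 18.9 and 168 for H2-Eb1, 93.2 and 878 for Cd74 and 0.160 and 0.781 for Ciita, and in cKO 301 for H2-Ab1, 6.76 for H2-DMa and 11.2 for H2-DMb1. A minimum mean of 10 gave the same 8 nearest profiles.

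Same-numbered WT and cKO libraries did not deviate together (r = 0.114, -0.0515 and 0.0028), so the numbers do not pair them. With a replicate block 2175 genes were called higher and 1828 lower, all 7 members among those higher. At this depth members at the floor cannot be told from absent ones, Ciita in WT rests on 5 to 7 counts a library, and counts of the H2-DMb copies can be incomplete where their sequence is shared.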
